A study of Mus musculus with 20 samples.

Results

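The Dlk1-Meg3 imprinted cluster on mouse chromosome 12 was followed through 5 of its genes, Dlk1, Rtl1, Meg3, Rian and Mirg, in embryonic stem cells that lack thymine DNA glycosylase (TDG KO) and in wild-type (WT) cells. The genes were taken by symbol, 5 of 46939 gene rows, each with a single row. The CTCF peaks were those that lie between positions 109400001 and 109800000 of chromosome 12, and they merged into 11 regions of 54729 in the whole set. Dlk1 was the member whose RNA differed between the genotypes. It was lower in TDG KO cells, at 10.3 ± 0.626 FPKM (fragments per kilobase of transcript, scaled to the mapped fragments of the library), against 25.6 ± 5.63 FPKM in WT cells (SD, n = 2 each). Meg3, Rian and Mirg did not pass the test, and Rtl1 was close to 0 in every library. No CTCF region of the cluster had peaks in both lists of one genotype and in neither list of the other. Over the genome, 10.8% of regions were in both TDG KO lists alone and 0.17% in both WT lists alone.

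The TDG KO group is a Tdg knockout embryonic stem cell culture of strain background 129, and the WT group is its wild-type control on the same background. Cells of both genotypes were kept in medium with serum and LIF on arrested embryonic fibroblasts as feeders, and the feeders were reduced by repeated short plating before use. Polyadenylated RNA was sequenced in 2 libraries per genotype, and CTCF, a zinc finger protein that binds DNA and halts cohesin at chromatin loops, was measured by chromatin immunoprecipitation with sequencing (ChIP-seq) in 2 libraries per genotype. Whether replicates came from separate cultures is not said in the labels, so the spread behind each p-value is that among these libraries and may be technical, and each genotype may be a single line. The values are sums over both parental alleles, and in such bulk samples fewer cells of a type and less RNA per cell cannot be told apart.

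Imprinted genes are read mainly from the chromosome of 1 parent. In this cluster Dlk1 and Rtl1, which encode proteins, are read from the paternal chromosome, and the long noncoding RNAs Meg3, Rian and Mirg, with the microRNAs and small nucleolar RNAs they carry, from the maternal one. A region between Dlk1 and Meg3 that is methylated on the paternal copy sets this pattern, and a second methylated region lies at the Meg3 promoter. TDG removes the oxidised cytosines 5-formylcytosine and 5-carboxylcytosine, which TET enzymes make from 5-methylcytosine. The question named in the title is the link of 5-carboxylcytosine with CTCF binding, and CTCF binding at imprinted loci is known to be sensitive to methylation. Neither DNA methylation nor the parental alleles were measured in the data used here, and no coordinates of the methylated regions were used.

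Sequences of the cluster are given from the RefSeq tables of mouse build GRCm38.p6, which is the mm10 build of the peak lists. Promoter windows, from 250 bases before to 50 bases after the start, were held for 4 of the 5 genes, those other than Rtl1. Each is set on 1 annotated start, at 109452823 for Dlk1, 338 bp after the first base of its RefSeq extent, and at the first base of the extent for Rian and Mirg. Meg3 has a window at the first base of its extent and a second one set on 109545398, with 1 CG pair and no match of the motifs searched. The windows of Dlk1 and Meg3 are shown because their RNAs are read from opposite parental chromosomes, and that of Rian because it holds the letters of the CTCF core 2 times; the Mirg window, not shown, holds them once. Capitals mark every match, on either strand, of 4 short motifs: the core of the CTCF motif, AGGNGGC, the cAMP response element, TGACGTCA, the TATA box, TATAAA, and the CCAAT box, CCAAT.
Dlk1 promoter, chr12:109452573-109452872, plus strand: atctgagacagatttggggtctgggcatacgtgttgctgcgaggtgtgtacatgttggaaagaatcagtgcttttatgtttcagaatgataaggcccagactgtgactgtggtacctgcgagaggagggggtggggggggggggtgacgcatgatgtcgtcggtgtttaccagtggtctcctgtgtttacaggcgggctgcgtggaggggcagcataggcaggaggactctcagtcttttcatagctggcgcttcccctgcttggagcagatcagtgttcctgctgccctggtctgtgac
Meg3 promoter, chr12:109540746-109541045, plus strand: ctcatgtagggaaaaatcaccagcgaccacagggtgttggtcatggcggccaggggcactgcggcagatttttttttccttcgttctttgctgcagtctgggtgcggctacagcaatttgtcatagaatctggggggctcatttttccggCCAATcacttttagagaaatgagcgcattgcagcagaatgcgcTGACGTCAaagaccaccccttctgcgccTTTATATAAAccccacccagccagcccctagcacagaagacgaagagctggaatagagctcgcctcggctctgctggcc
Rian promoter, chr12:109603695-109603994, plus strand: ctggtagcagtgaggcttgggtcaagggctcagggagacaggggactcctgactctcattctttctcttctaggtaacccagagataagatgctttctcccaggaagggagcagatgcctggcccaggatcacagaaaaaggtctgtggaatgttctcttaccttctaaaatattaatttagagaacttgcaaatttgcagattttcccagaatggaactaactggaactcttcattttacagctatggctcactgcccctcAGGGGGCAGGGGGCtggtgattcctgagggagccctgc
The Dlk1 window held none of the 4 motifs. The Meg3 window held CCAAT at −100, TGACGTCA at −57 and 2 overlapping TATA matches, TTTATA at −29 and TATAAA at −25, counted from the start. The Rian window held AGGGGGC 2 times in a row, at 12 and 19 bases after the start. The Mirg window held GCCACCT, the CTCF core on the minus strand, at −143 and CCAAT at −184. Among all 32851 promoter windows of the table, 29.4% held AGGNGGC, 1.79% TGACGTCA, 13.6% TATAAA and 37.4% CCAAT. CG pairs numbered 9 in the Dlk1 window, 13 in the Meg3 window and 0 in the Rian window, against a median of 7 over all windows. These matches are letters in a window and not measured sites.

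The maternal RNAs are hosts of microRNAs. The RefSeq tables place 112 mature microRNAs, with 111 distinct sequences, in the window. They belong to 60 microRNA genes, 57 on the plus strand and 3 on the minus strand, and hairpin sequences of 57 of these genes were used here. The mature sequences of 2 of the genes lie inside Meg3, those of 15 inside the extent of Rtl1, of 3 inside Rian, of 30 between Rian and Mirg and of 10 inside Mirg. The seed, bases 2 to 8 of the mature strand, pairs with target RNAs, and 9 seeds were shared between 2 distinct sequences of the cluster, covering 18 sequences. A microRNA from each of 3 such pairs and its partner are shown as examples of a shared seed, with the seed in capitals.
mmu-miR-379-5p: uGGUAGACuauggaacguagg
mmu-miR-1193-5p: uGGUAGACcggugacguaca
mmu-miR-494-5p: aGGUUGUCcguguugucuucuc
mmu-miR-410-5p: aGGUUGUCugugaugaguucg
mmu-miR-453: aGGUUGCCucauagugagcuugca
mmu-miR-496a-5p: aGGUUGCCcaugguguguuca
The mature miR-379-5p, miR-1193-5p and miR-494-5p are placed between Rian and Mirg, and miR-410-5p, miR-453 and miR-496a-5p inside Mirg. In the RNA table all 60 microRNA rows of the window were listed at 0 FPKM in all 4 libraries, which were made with a kit for messenger RNA, so the RNA values below are those of the host transcripts and not of the microRNAs.

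The 4 RNA libraries were checked for their labels first. Tdg held 5.50 and 4.74 FPKM in TDG KO replicates 1 and 2, against 28.1 and 30.4 FPKM in WT replicates 1 and 2, a log2 change of −2.31 (SE 0.0866, adjusted p = 9.21e-06 in limma, Benjamini-Hochberg method). All 10 embryonic stem cell markers were above 0 in every library, with Pou5f1 at 996 and 1094 FPKM in TDG KO and 1509 and 1572 FPKM in WT libraries. Of these markers 2 were higher and 5 lower in TDG KO cells, with a median log2 change of −0.33, and Klf4 (−0.75), Utf1 (0.67), Pou5f1 (−0.56) and Dppa5a (−0.56) had the largest called changes. None of 16 fibroblast markers was at 0 either. Genes above 0 FPKM numbered 21776 and 21313 in TDG KO libraries and 21052 and 20537 in WT libraries. Depth relative to WT replicate 1, read from the steps of low FPKM values, was 0.990 and 0.930 in TDG KO replicates 1 and 2 and 0.859 in WT replicate 2, and absolute depth is unknown. Of the 12035 genes tested, 24.4% were called higher and 29.5% lower in TDG KO cells, so a call in either direction, at 54% of genes, is common in this comparison.

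Among the paternally read genes, Dlk1 (ENSMUSG00000040856, chromosome 12, 109452485 to 109463336 in RefSeq) encodes a membrane protein with EGF-like repeats, related to the Notch ligands and known for holding back fat cell differentiation. Dlk1 RNA held 9.85 and 10.7 FPKM in TDG KO replicates 1 and 2, against 29.6 and 21.6 FPKM in WT replicates 1 and 2. Both TDG KO libraries were below both WT libraries, a pattern without overlap that 78.8% of tested genes had in one direction or the other. The TDG KO pair lay close together and the WT pair farther apart. The log2 change on the log2(FPKM + 1) scale was −1.22 (SE 0.137, 95% interval −1.55 to −0.89, limma, adjusted p = 0.000591), and the mean level in TDG KO cells was 0.402 of that in WT cells. A called change this low or lower was seen in 86 of the 12035 tested genes, 0.715%. Among the genes above 0, mean Dlk1 FPKM stood at percentile 72.3 in TDG KO cells and 83.2 in WT cells. The authors' deposited table, with its sign turned to TDG KO over WT, gave Dlk1 a log2 fold of −1.31 and a q-value of 0.000468. Fibroblast markers were lower in the same libraries, with 10 of the 14 tested called lower, against 29.5% of all tested genes. Leaving out each RNA library in turn kept the Dlk1 call, with log2 changes of −1.003 to −1.44.

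Rtl1 (ENSMUSG00000085925, chromosome 12, 109564900 to 109604418), also read from the paternal chromosome, encodes a protein derived from a retrotransposon and is known for its part in the placenta. Its RNA held 0.0926 and 0.121 FPKM in TDG KO replicates 1 and 2, against 0.0873 and 0.0884 FPKM in WT replicates 1 and 2. Both TDG KO values were above both WT values by a small margin. Among tested genes, 78.8% had no overlap in one direction or the other. Rtl1 was below the filter of a mean of 1 FPKM and was not tested, and the authors' deposited table marks it NOTEST. Its RefSeq extent overlaps the end of Meg3 and the start of Rian, while its FPKM row is listed at 109589194 to 109600330, which overlaps neither. RefSeq places 6430411K18Rik, known as an RNA antisense to Rtl1, inside both the extent and that listed stretch (109591537 to 109592851). The sources used here do not say whether the authors counted by strand, so sense and antisense reads cannot be told apart.

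Among the maternally read RNAs, Meg3 (ENSMUSG00000021268, chromosome 12, 109540996 to 109571729) is a long noncoding RNA that has been reported to bind Polycomb complex 2, a histone methyltransferase. Meg3 held 82.7 and 62.8 FPKM in TDG KO replicates 1 and 2, against 71.0 and 49.5 FPKM in WT replicates 1 and 2. The groups overlapped, since WT replicate 1 stood above TDG KO replicate 2, and in each genotype replicate 1 was the higher. The log2 change was 0.28 (SE 0.184, 95% interval −0.16 to 0.72, limma, adjusted p = 0.239). Without WT replicate 1 it was 0.53 and passed the threshold (limma, adjusted p = 0.0371), and it passed with the replicate number as a block too (0.28, limma, adjusted p = 0.00553). Over all alternatives the adjusted p of Meg3 in limma ran from 0.00553 to 0.924.

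Rian (ENSMUSG00000097451, chromosome 12, 109603945 to 109661716), host of small nucleolar RNAs and microRNAs, had the highest level of the 5 genes. Rian held 188 and 164.6 FPKM in TDG KO replicates 1 and 2, against 164.1 and 150.5 FPKM in WT replicates 1 and 2. The groups touched without overlap, with TDG KO replicate 2 just above WT replicate 1, a pattern without overlap that 78.8% of tested genes had in one direction or the other. The log2 change was 0.16 (SE 0.0847, 95% interval −0.04 to 0.36, limma, adjusted p = 0.149) and did not pass the test.

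Mirg (ENSMUSG00000097391, chromosome 12, 109734981 to 109749458), the RNA at the far end that carries a large microRNA group, had nearly level values. Its FPKM row is listed at 109729764 to 109749460, which starts before the RefSeq extent. That stretch also holds microRNA genes counted above as between Rian and Mirg, among them Mir382 and Mir134. Mirg held 13.8 and 14.1 FPKM in TDG KO replicates 1 and 2, against 14.5 and 13.2 FPKM in WT replicates 1 and 2, so both TDG KO values fell between the WT values. The log2 change was 0.01 (SE 0.0729, 95% interval −0.16 to 0.19, limma, adjusted p = 0.906). The intervals of the 3 maternal RNAs lay above the whole interval of Dlk1, and those of Rian and Mirg end below a log2 increase of 0.5.

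**Figure D1:**
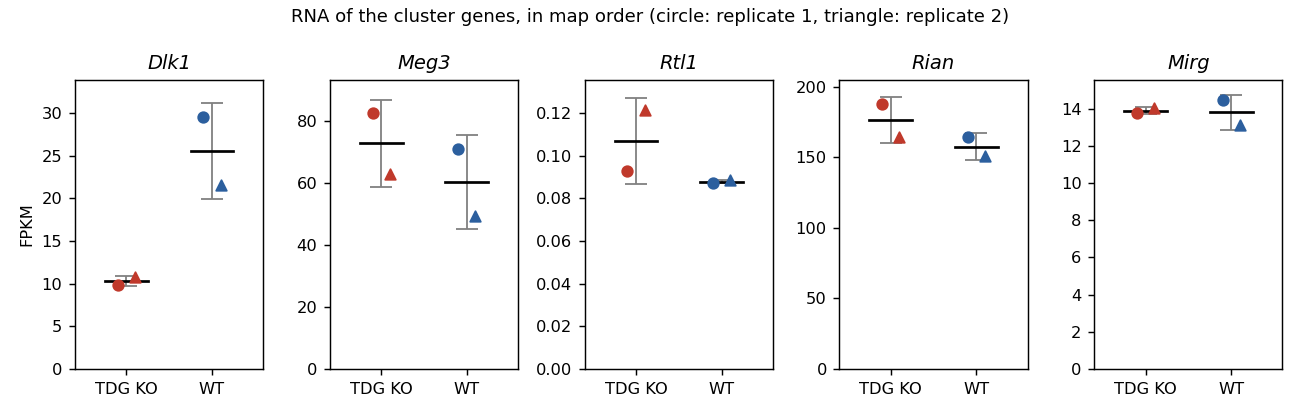
FPKM of Dlk1, Rtl1, Meg3, Rian and Mirg in each RNA library, with TDG KO libraries left of WT libraries in each panel; points are libraries and bars are means with SD (n = 2 each). Dlk1 lies at 9.85 and 10.7 FPKM in TDG KO and at 29.6 and 21.6 FPKM in WT libraries, Meg3 and Mirg overlap between the genotypes, and Rtl1 is near 0.

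The order of FPKM levels, which are per length, was the same in both libraries of a genotype. In TDG KO libraries it ran Rian, Meg3, Mirg, Dlk1, Rtl1, and in WT libraries Rian, Meg3, Dlk1, Mirg, Rtl1, so Dlk1 and Mirg changed places. Neighbours in the order did not overlap between the libraries of a genotype. In the same library, Dlk1 divided by Meg3 was 0.119 and 0.171 in TDG KO replicates 1 and 2, against 0.417 and 0.437 in WT replicates 1 and 2. The means were 0.145 ± 0.0366 in TDG KO and 0.427 ± 0.0144 in WT cells (SD, n = 2 each), a 2-sided exact permutation p of 0.33, the smallest that 2 against 2 libraries can give. This ratio does not depend on library scaling. The WT pair, which differed in Dlk1 and in Meg3 in the same direction, was closer in the ratio than in either gene. The TDG KO pair, which differed in them in opposite directions, was relatively farther apart in the ratio than in either gene.

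Dlk1 divided by Rian was 0.0524 and 0.0652 in TDG KO libraries, against 0.180 and 0.144 in WT libraries. Dlk1 divided by Mirg was 0.716 and 0.764 in TDG KO libraries, against 2.05 and 1.64 in WT libraries. Ratios among the maternal RNAs differed less between the genotypes. Rian divided by Meg3 was 2.27 and 2.62 in TDG KO libraries, against 2.31 and 3.04 in WT libraries, and Mirg divided by Meg3 was 0.167 and 0.224 in TDG KO libraries, against 0.204 and 0.266 in WT libraries. Mirg divided by Rian was 0.0732 and 0.0854 in TDG KO libraries, against 0.0881 and 0.0874 in WT libraries. The summed FPKM of Meg3, Rian and Mirg was 284 and 241 in TDG KO libraries, against 249.6 and 213 in WT libraries, and Rian made up 66.1% and 68.2% of it in TDG KO libraries, against 65.8% and 70.6% in WT libraries.

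Beside the 5 genes, the RNA table has 97 other rows in the window, and 93 of them were listed at 0 in all 4 libraries. The other 4 rows were low. The highest single value was 0.383 FPKM for Gm27528, in TDG KO replicate 1 alone. Gm26945, which is listed with the same extent as Rian, held 0.102 and 0.0668 FPKM in TDG KO libraries, against 0.0931 and 0.0633 FPKM in WT libraries. Gm37899 and B830012L14Rik stayed under 0.05 FPKM in every library.

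The stretch of chromosome 12 around the cluster was compared next. Within 1 Mb of the window, 11 other genes were tested, of which 0 were called higher and 5 lower in TDG KO cells by limma (1 higher and 6 lower at an unadjusted p under 0.05), which is 0% and 45.5% of the 11, against 24.4% and 29.5% of all tested genes. Their median log2 change was −0.24. The 5 were Evl, Wdr25, Ppp2r5c, Hsp90aa1 and Wdr20. Ppp2r5c, a regulatory subunit of protein phosphatase 2A, held 25.2 and 25.3 FPKM in TDG KO libraries, against 37.9 and 41.7 FPKM in WT libraries, a log2 change of −0.64 (limma, adjusted p = 0.000497). Wdr25, which lies on the Dlk1 side of the cluster, held 3.43 and 3.85 FPKM in TDG KO libraries, against 5.55 and 5.64 FPKM in WT libraries, a log2 change of −0.51 (limma, adjusted p = 0.00301). The changes of Evl, Hsp90aa1 and Wdr20 were −0.24, −0.37 and −0.41. Dlk1 had the lowest log2 change of the 15 genes tested here.

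Dio3, an enzyme that inactivates thyroid hormone and the imprinted gene at the other edge of the domain, held 4.74 and 5.80 FPKM in TDG KO libraries, against 4.39 and 4.03 FPKM in WT libraries. Its log2 change of 0.26 did not pass the test (limma, adjusted p = 0.0725). Yy1, a zinc finger factor known to bind at imprinted loci, had a log2 change of −0.25 and did not pass (limma, adjusted p = 0.0618). On chromosome 12, 85 genes were called higher and 124 lower of 429 tested (19.8% and 28.9%), with a median of −0.07, against −0.04 over all tested genes. Within 5 Mb of the middle of the window, 17 were higher and 18 lower of 69 (24.6% and 26.1%), with a median of −0.02.

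**Figure D2:**
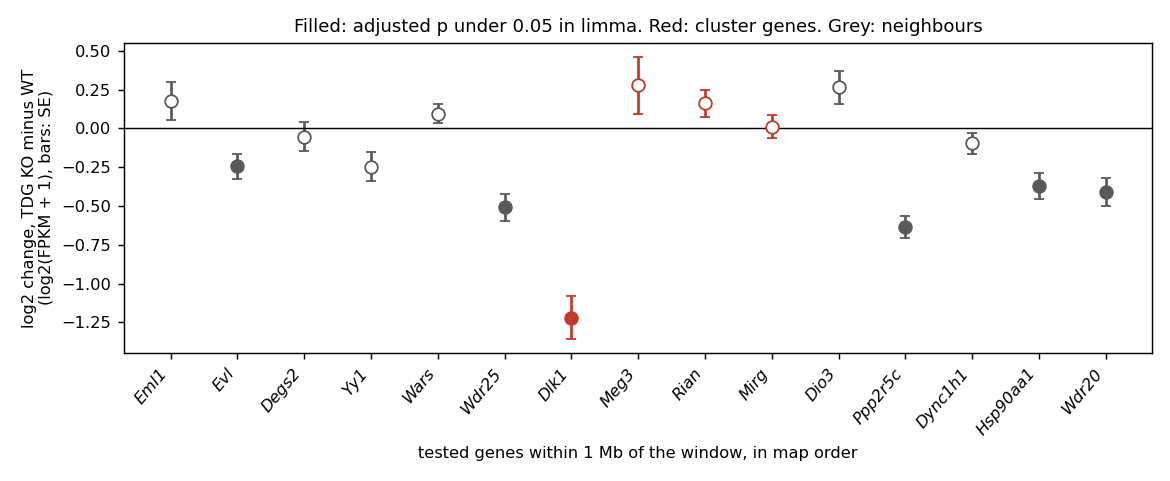
Log2 change in RNA, TDG KO over WT, for the tested genes of the cluster and within 1 Mb of the window, in chromosomal order. Bars are the SE from limma and not 95% intervals. Dlk1 stands lowest at −1.22, the other cluster genes lie between 0.01 and 0.28, and the called neighbours lie between −0.24 and −0.64.

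Fibroblast markers moved in the same direction as Dlk1. Dlk1 is also made by embryonic mesenchyme and preadipocytes, and feeder fibroblasts were part of both cultures. Of the 16 markers all were in the table and 14 were tested, of which 1 was higher (Vim, log2 change 0.58) and 10 lower in TDG KO cells, with a median of −0.67. Over all tested genes 24.4% were called higher and 29.5% lower. Their summed FPKM was 574 and 624 in TDG KO libraries, against 772 and 579 in WT libraries, and without Vim, named and set aside after its values were seen and also made by stem cells, 256 and 270.5 in TDG KO libraries, against 523 and 375 in WT libraries. Col3a1, a fibrillar collagen, held 15.3 and 19.02 FPKM in TDG KO libraries, against 57.1 and 29.8 FPKM in WT libraries (log2 change −1.23, limma, adjusted p = 0.00856), and Dcn, a matrix proteoglycan, 4.04 and 4.02 FPKM in TDG KO libraries, against 13.8 and 7.91 FPKM in WT libraries (log2 change −1.19, limma, adjusted p = 0.00367). S100a4 and Col6a3 were the next, with changes of −1.09 and −0.92, while Col1a1, named after its values were seen, at 24.97 and 28.97 FPKM in TDG KO libraries and 36.6 and 21.7 FPKM in WT libraries, did not pass.

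Each of the 14 tested fibroblast markers stood higher in the first WT library than in the second, with a median log2 difference of 0.50. Dlk1 differed between the same WT libraries by 0.43 and Meg3 by 0.51, while Rian and Mirg differed by 0.12 and 0.13 and the median of all tested genes by −0.01. Between TDG KO replicates 1 and 2 the markers differed by a median of −0.11 and Dlk1 by −0.11. Dlk1 per 100 FPKM of the markers other than Vim, a ratio chosen after the values were seen, was 3.85 and 3.97 in TDG KO libraries, against 5.65 and 5.77 in WT libraries. On that scale the WT mean was 1.46 times the TDG KO mean, against 2.49 times for Dlk1 FPKM itself. The value 1.46 depends on leaving out Vim, the 1 marker called higher in TDG KO cells. With Vim the marker sums overlapped between the genotypes, at 574 and 624 FPKM in TDG KO libraries, against 772 and 579 FPKM in WT libraries. Dlk1 per FPKM of the markers with Vim is not given here. The part of the fibroblast RNA in the Dlk1 result was not tested.

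**Figure D3:**
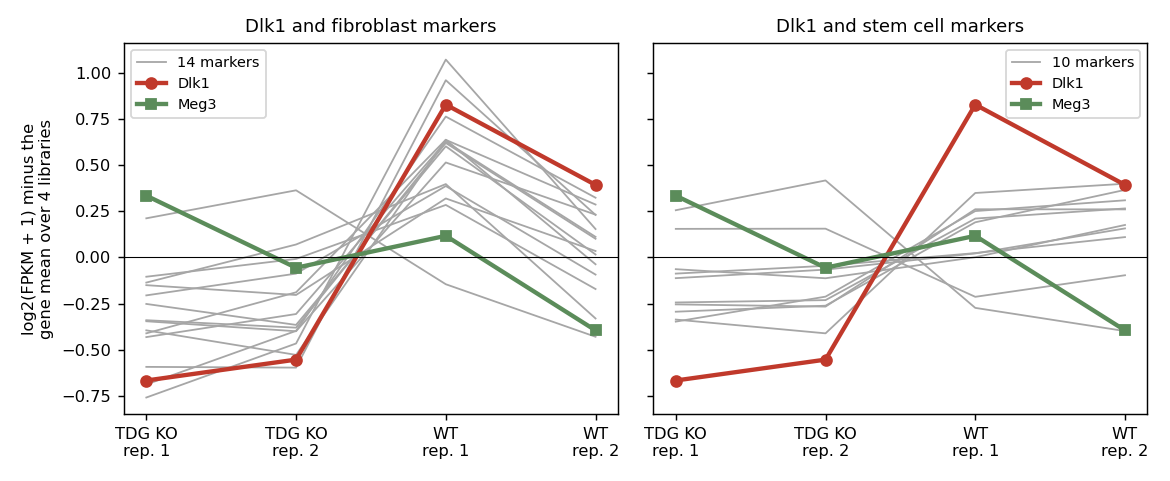
Log2(FPKM + 1) of Dlk1 and Meg3 in the 4 RNA libraries, each gene centred on its own mean, with TDG KO libraries left of WT libraries. They are drawn over the 14 tested fibroblast markers (left panel) and the 10 embryonic stem cell markers (right panel), 1 line per marker. Dlk1 is lower in TDG KO libraries and stands higher in the first WT library than in the second, by 0.43 log2. The median of that difference over the fibroblast markers, not drawn, is 0.50 log2.

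Genes that bear on the cluster's regulation were taken by list and read against the 24.4% of tested genes called higher and 29.5% called lower. Of 16 regulators of imprint methylation 14 were tested, of which 5 were higher and 7 lower, with a median of −0.21. Dppa3, which protects imprints from demethylation in the zygote, held 57.8 and 61.9 FPKM in TDG KO libraries, against 1.83 and 1.67 FPKM in WT libraries (log2 change 4.47, limma, adjusted p = 7.14e-07). The de novo methyltransferase Dnmt3a was also higher, with 35.5 and 36.3 FPKM in TDG KO libraries, against 12.3 and 12.9 FPKM in WT libraries, a log2 change of 1.44. Tet2, a methylcytosine oxidase, held 10.4 and 7.72 FPKM in TDG KO libraries, against 29.3 and 26.3 FPKM in WT libraries, a log2 change of −1.53. Ctcfl, a paralogue of CTCF, held 3.16 and 2.83 FPKM in TDG KO libraries, against 0.673 and 0.599 FPKM in WT libraries, a log2 change of 1.29.

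Named after their values were seen, for their known roles, are 3 more of these regulators. Zfp57, a zinc finger protein that guards imprints, held 149 and 140.3 FPKM in TDG KO libraries, against 272 and 283 FPKM in WT libraries (log2 change −0.93, limma, adjusted p = 9.62e-05). Its cofactor Trim28 had a log2 change of −0.01 and was not called. Ctcf held 42.4 and 41.1 FPKM in TDG KO libraries, against 48.8 and 52.5 FPKM in WT libraries (log2 change −0.27, limma, adjusted p = 0.0118).

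Of 12 Polycomb complex 2 genes 11 were tested, with a median of −0.26. Of these, 2 were higher and 6 lower, against 24.4% and 29.5% of all tested genes. Rbbp7, a histone binding subunit, was the lowest at −1.49, with 233 and 237 FPKM in TDG KO libraries, against 643 and 686 FPKM in WT libraries. Rbbp4 was lower by less (−0.54), and Ezh1, a catalytic subunit, and Suz12, a core subunit, were higher, with changes of 0.85 and 0.48. The catalytic subunit Ezh2, named after its values were seen, was lower with a change of −0.41.

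Of 30 Notch pathway genes 20 were tested, with a median of 0.10. Of these, 6 were higher and 3 lower, against 24.4% and 29.5% of all tested genes. The ligand Jag2 held 6.29 and 5.97 FPKM in TDG KO libraries, against 2.82 and 2.55 FPKM in WT libraries, a log2 change of 0.95. The glycosyltransferase Lfng (0.93) and the receptor Notch4 (0.75) were also higher, and Ncstn, a subunit of the gamma-secretase that cleaves Notch, was lower (−0.60). Dlk2, the closest relative of Dlk1 and named after its values were seen, was below the filter, at 0.176 and 0.171 FPKM in TDG KO libraries and 0.101 and 0.0855 FPKM in WT libraries. The target Hes1, named in the same way, had a change of −0.16 and was not called.

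Rtl1 has relatives among genes derived from retrotransposon Gag. Of 19 listed, 11 were in the table and 5 were tested, with a median of 0.23. Of the 5, 1 was higher and 1 lower, against 24.4% and 29.5% of all tested genes. Peg10, a paternally read imprinted gene on another chromosome, held 94.5 and 82.5 FPKM in TDG KO libraries, against 21.0 and 20.9 FPKM in WT libraries (log2 change 2.02, limma, adjusted p = 9.71e-06). Cxx1c was lower, with a change of −0.67. Of 36 imprinted genes outside the cluster, among them Peg10 again, 27 were tested, with a median of 0.39. Of the 27, 15 were higher and 5 lower, against the same 24.4% and 29.5% of all tested genes. Among them Plagl1, a zinc finger factor, was higher, with 10.8 and 8.95 FPKM in TDG KO libraries, against 0.883 and 0.661 FPKM in WT libraries, a log2 change of 2.62. Nnat was higher (1.68), and Grb10, a growth inhibitor, was lower, with 16.9 and 16.3 FPKM in TDG KO libraries, against 75.3 and 79.1 FPKM in WT libraries, a log2 change of −2.15. H19 and Igf2, named after their values were seen because they form the best known CTCF-regulated imprinted pair, had changes of −0.12 and −0.15 and were not called.

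Profiles over the 4 RNA libraries were compared on the log2(FPKM + 1) scale, each gene centred on its own mean, by the root mean square difference. The 3 tested genes closest to Dlk1 were Ifitm3 (0.0732), Fst (0.0825) and Fstl1 (0.0825). Ifitm3 held 76.7 and 82.5 FPKM in TDG KO libraries, against 211 and 178 FPKM in WT libraries, so its WT replicate 1 was also the higher of the pair. Closest to Meg3 were Cd82 (0.0365), Wfdc10 (0.0574) and Gm6654 (0.0592), all low genes whose replicate 1 was the higher in both genotypes. Closest to Rian were Fam126a (0.0122), Phldb2 (0.0130) and Tbc1d9b (0.0133), and closest to Mirg were Psap (0.00112), Paqr4 (0.00583) and Ppp2r5b (0.00689). None of these 12 genes lies on chromosome 12. With 4 libraries, genes with small changes have many near neighbours, so these values are descriptions.

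CTCF peaks of the cluster window numbered 9 and 10 in TDG KO lists 1 and 2, against 7 and 7 in WT lists 1 and 2. The TDG KO lists were longer throughout the genome, with 48514 and 48833 peaks, against 38303 and 37099 in the WT lists. Per 10000 peaks of its own list the window held 1.86 and 2.05 peaks in TDG KO lists, against 1.83 and 1.89 in WT lists. When each list was cut to its 37099 strongest peaks, the number in the shortest list, the mean difference in peaks, TDG KO minus WT, fell to 0.5, against 2.5 with the full lists. An exact permutation test of 2 against 2 lists cannot go below p = 0.33, so these counts carry no p-value.

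Of the 11 merged regions, 6 had peaks in all 4 lists, 2 in both TDG KO lists and 1 WT list and 3 in a single list, which was a TDG KO list each time. None was in both TDG KO lists and no WT list, a class that held 10.8% of all regions of the genome, and none was in both WT lists alone, which held 0.17%. Regions in all lists made up 59.8% of the genome's regions, those in both TDG KO lists and 1 WT list 10.1%, and those in 1 TDG KO list alone 13%. The score of each peak is the authors' own, the sources used here do not say what it measures, and it served only to place a peak in its own list, as a percentile in which 100 is the strongest peak. Since the lists differ in length, no change between genotypes is read from a percentile.

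**Figure D4:**
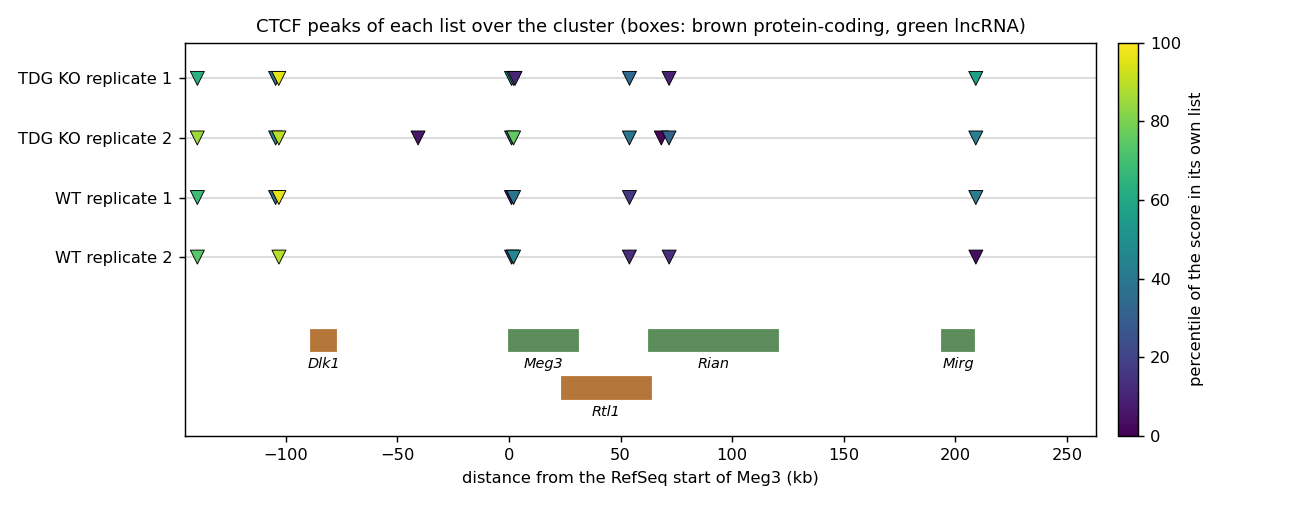
Map of the cluster by distance from the start of Meg3, in kb, with the extents of the 5 genes and the CTCF peaks of each list, TDG KO lists above WT lists; the shade of a peak is its percentile in its own list, and neighbouring peaks can overlap at this scale. Regions in all 4 lists lie on both sides of Dlk1 and Meg3, and 103.9 kb between regions 3 and 5 hold no region in all lists.

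On the Dlk1 side, before the gene, 3 regions were listed. Region 1 (109401152 to 109401562) lies 50923 bp before Dlk1 and was in all 4 lists, at percentiles 63.8 and 85.3 in TDG KO lists and 68.1 and 73.5 in WT lists. Region 3 (109437597 to 109438101) lies 14384 bp before Dlk1 and was the strongest of the window in every list. Its peaks scored 102 and 82.8 in TDG KO lists and 84.4 and 62.3 in WT lists, at percentiles 95.6 and 89.5 in TDG KO lists and 95.7 and 88.8 in WT lists. Region 2 (109436316 to 109436563), 1.03 kb before region 3, was in both TDG KO lists and in WT list 1, at percentiles 37.8 and 44.3 in TDG KO lists and 32.4 in the WT list.

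Between Dlk1 and Meg3, where the primary methylated region of the cluster lies, peaks were few. Region 4 (109500182 to 109500353), inside the noncoding gene Gm34081, was in TDG KO list 2 alone, at percentile 5.98. From there to region 5, over 41.6 kb that end just inside Meg3, no list held a peak. The Meg3 promoter window printed above lies in that empty stretch.

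Inside Meg3, 3 regions followed its start within 3 kb. Region 5 (109541975 to 109542304), 979 bp after the start, was in all 4 lists, at percentiles 46.1 and 32.1 in TDG KO lists and 5.11 and 19.4 in WT lists. Region 6 (109542897 to 109543188), 1901 bp after the start, was in all 4 lists, at percentiles 69.9 and 75.4 in TDG KO lists and 38.4 and 46.7 in WT lists. Region 7 (109543623 to 109543783), 2627 bp after the start, was in TDG KO list 1 alone, at percentile 10.3. When only peaks above percentile 50 of their own list were kept, region 6 stayed in both TDG KO lists and in no WT list, and it was then the 1 TDG KO-only region of the window. That cut falls at a different rank in lists of different length, so no change between genotypes is read from it. With each list cut to its 37099 strongest peaks, TDG KO-only regions of the window numbered 0. The share of such regions over the genome at percentile 50 is not given here.

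Beyond Meg3, region 8 (109594699 to 109595230) lies inside the extent of Rtl1 and was in all 4 lists, at percentiles 33.5 and 38.6 in TDG KO lists and 16.4 and 12.8 in WT lists. It covers the hairpin of Mir432, a microRNA precursor of the strand opposite to Rtl1, shown with the mature miR-432 in capitals because 1 of the 60 microRNA genes, this one, has its mature sequence inside a CTCF region of the cluster.
Mir432 hairpin, chr12:109594956-109595030, plus strand: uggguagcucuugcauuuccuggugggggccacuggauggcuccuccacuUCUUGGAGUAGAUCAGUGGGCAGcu
In Rian, region 9 (109609159 to 109609317) was in TDG KO list 2 alone, at percentile 1.74, and region 10 (109612523 to 109612872) was in both TDG KO lists, at percentiles 9.61 and 31.1, and in WT list 2, at 12.6. The Rian promoter with its 2 copies of AGGGGGC held no listed peak. After region 10 no list held a peak over 137.1 kb, a stretch with most of Rian, the microRNA hairpins between Rian and Mirg, and Mirg itself. Region 11 (109750007 to 109750313), 549 bp past the end of Mirg, closed the cluster in all 4 lists, at percentiles 57.1 and 43.3 in TDG KO lists and 42.2 and 3.40 in WT lists.

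The 6 regions in all lists were also placed by rank from the strongest peak, with 1 as the strongest. In percentile, both TDG KO lists stood above both WT lists in 4 of the 6 regions (5, 6, 8 and 11), as in 41.6% of all 32740 such regions of the genome, and in none of the 6 did both stand below, as in 6.85%. In rank, both TDG KO lists stood nearer the top in 1 of the 6, region 6, as in 18.4% of such regions, and farther from it in none, as in 21.9%. Region 6 ranked 14580 and 11991 in TDG KO lists, against 23565 and 19729 in WT lists. Region 5 ranked 26072 and 33140 in TDG KO lists, against 36346 and 29893 in WT lists, so the groups overlapped, and the ranks of regions 8 and 11 overlapped too. Neither count was tested.

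**Figure D5:**
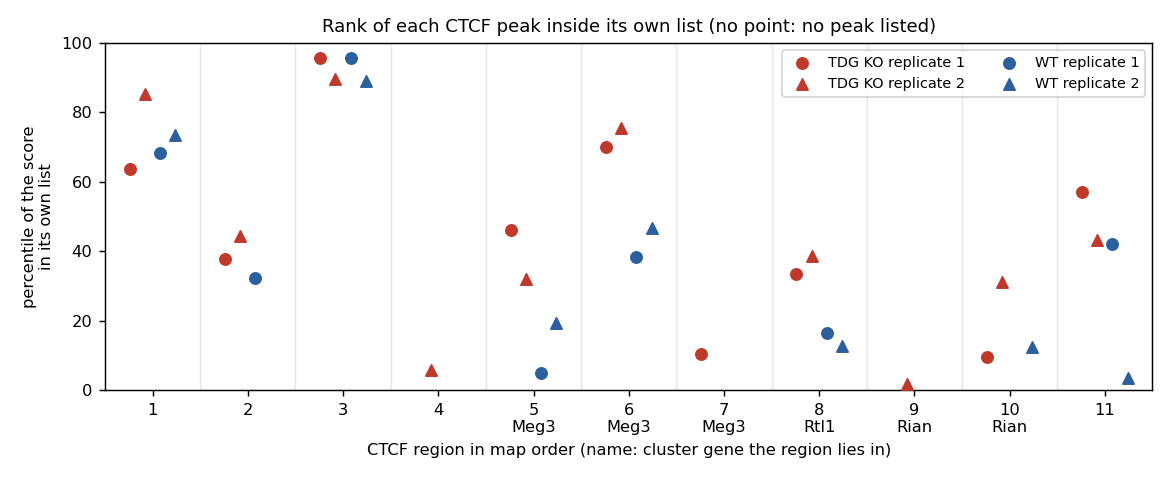
Percentile by the authors' score of each CTCF peak in its own list, for the 11 regions of the cluster in chromosomal order, TDG KO lists left of WT lists; a missing point is a list with no peak there. Region 3 lies between 88.8 and 95.7 in every list, and region 6 lies at 69.9 and 75.4 in TDG KO lists and at 38.4 and 46.7 in WT lists.

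The RNA and CTCF results were set side by side by position. Dlk1, the gene with lower RNA in TDG KO cells, had no CTCF region inside it, and its nearest region, region 3, was in all 4 lists near the top of each. Meg3, whose RNA did not pass the test, held regions 5, 6 and 7 after its start. RNA and CTCF came from separate libraries, and a relation between them was not tested.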

How the data were processed

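The members and the gene lists were chosen with earlier results of these data known. The authors deposited FPKM values per gene and library and, in a table of their comparison, log2 folds with p-values and q-values; that fold runs WT over TDG KO and its sign was turned here. The authors also deposited 1 CTCF peak list per library, with a score per peak. Tools named in the submitters' processing notes are Bowtie2 2.2.9, TopHat2 2.1.1, MACS2 2.2.1, Cufflinks 2.2.1, Cuffdiff and deepTools, and the build is mm10. No counts are in the files, so no count test was run and depth is known only as a ratio. RNA was tested with limma 3.58.1 (R 4.3.3, trend) on log2(FPKM + 1), 2-sided, for the 12035 genes whose FPKM averaged 1 or more, with p-values adjusted over them by the Benjamini-Hochberg method and a threshold of 0.05; changes on this scale are understated for low genes. The fit was tested on simulated data. Peaks were merged at 1 bp of overlap, and coordinates are 1-based. Named are the members, the rows of the window, tested genes within 1 Mb, up to 4 called genes per list with the largest change, and the 3 genes closest in profile to each tested member. Genes named outside this rule are marked as such in the text. Alternatives changed the pseudocount, filter, scaling, block, libraries, peak threshold, overlap and window. RNA polymerase II, IgG and input libraries were not used here.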

Additional observations from a re-analysis of the deposited data

How the results depend on the processing

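Dlk1 was called lower under all 9 alternatives: a pseudocount of 0.1, no filter, a filter at 5 FPKM, upper-quartile scaling, the replicate block and each library left out in turn (log2 change −1.003 to −1.44, limma adjusted p 2.36e-05 to 0.0181). Rian was called under none. Meg3 was called with the replicate block (0.28, adjusted p = 0.00553) and without WT replicate 1, in a leave-one-out range of 0.022 to 0.53; Mirg ranged from −0.053 (without WT replicate 2; −0.003 without TDG KO replicate 2) to 0.075. The cause was not tested. Rtl1, below the filter, had a difference of 0.14 at a pseudocount of 0.1, against 0.025. Same-numbered libraries did not deviate together over all genes (r = −0.0157 across 12035 genes, which are not independent replicates). Whether they were processed together was not tested. Replicate 1 was the higher in TDG KO and in WT for Meg3 (log2 differences 0.39 and 0.51) and Rian (0.19 and 0.12). For Dlk1 and Mirg the direction differed between the genotypes. Beside the call of Meg3, the block moved the number of called genes to 6696, against 6496, and no other member's call. The mean difference in CTCF peaks of the window, TDG KO minus WT, was 2.5; it was 0.5 with lists of equal length, 1.5 with peaks above percentile 50 of each list, 3 in a window of 109300001 to 109900000 and 2 to 3 with a list left out. Percentile 50 left 4 regions, 2 in all lists and 1 TDG KO-only, against 11, 6 and 0. That cut falls at a different rank in lists of different length. TDG KO-only regions numbered 0 with lists of equal length and 1 to 2 with a list left out. Calls with a library left out assume that the lone library of its genotype varies like the other pair. How deeply the CTCF libraries were sequenced is unknown.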
